A study of Gallus gallus with 3 samples.

Results

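The 739 regions described here are H3K4me3 peaks that lay wholly inside an H3K27me3 peak in the neural tube of the chicken embryo. They were chosen by position alone, from the peak lists the authors deposited. A peak of the H3K4me3 list on a numbered chromosome was taken when its start and its end both fell within 1 peak of the H3K27me3 list, and equal ends counted. Of 11302 H3K4me3 peaks on numbered chromosomes, 739 met this rule, or 6.54% (95% Wilson interval 6.10 to 7.01%). The whole H3K4me3 list, with the sex chromosomes and unplaced sequences, held 12414 peaks. The H3K27me3 peaks that enclosed them are called hosts here, and there were 724 of them among 5535 H3K27me3 peaks on numbered chromosomes, or 13.1%.

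The neural tubes were taken at HH30, a stage of the Hamburger and Hamilton table, from wild-type (WT) White Leghorn embryos incubated at 38.5 °C and 70% humidity. Chromatin was recovered with an antibody against H3K4me3 (Abcam ab8580) for 1 library and against H3K27me3 (Millipore 07-449) for another, and DNA without immunoprecipitation was sequenced as the Input, which was not analysed here. The labels name no treatment and give no number of embryos per library. With 1 library for each mark there is no replicate check of any value and no test between samples, the read depth is unknown, and intervals cover counting error only and treat neighbouring peaks as independent.

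H3K4me3 is the trimethylated lysine that the SET1 and MLL family of methyltransferases leave around the start sites of genes in use or ready for use, mostly over CpG-rich promoters. H3K27me3 is written by Polycomb repressive complex PRC2 and lies over silenced genes, among them many regulators of development. Places that carry both marks are known as bivalent, and were first described in embryonic stem cells at genes that are held silent until a lineage is chosen. The neural tube at HH30 is a mixture of progenitors and many kinds of neurons. Separate maps of such a mixture cannot tell both marks on the same chromatin from each mark in different cells, nor fewer marked cells from less mark in each cell.

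Nested H3K4me3 peaks were of ordinary width but had low scores, whereas their hosts were wide and had high scores. The score was assigned to each peak by the peak caller and deposited by the authors without the name of its scale. It rose with width, and many of the highest-scoring peaks shared the value 3100, so ratios of scores cannot be read as ratios of enrichment. Widths and scores come from the same peak calls that chose the members and are given as a description.

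The nested peaks had a median width of 1447 bp (quartiles 1196.5 and 1762 bp). Partly overlapped H3K4me3 peaks, which shared at least 1 bp with H3K27me3 but reached beyond it, had a median width of 1409 bp (quartiles 956.75 and 1920.25 bp; 1316 peaks). H3K4me3 peaks without H3K27me3 had a median width of 1454 bp (quartiles 1083 and 1861 bp; 9247 peaks). The 3 medians thus lay within 45 bp of each other, although the nested peaks had the narrowest spread between quartiles.

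The median score of nested peaks was 262.68 (quartiles 120.02 and 629.25). Partly overlapped peaks had a median score of 579.09 (quartiles 210.14 and 1376.1), and peaks without H3K27me3 had 1319.84 (quartiles 504.41 and 2421.6). The ratio of medians was 0.454 for nested over partly overlapped peaks and 0.199 for nested peaks over those without H3K27me3. Low scores were common among the members, and the top of the scale was nearly empty of them. Scores under 100 were held by 150 nested peaks (20.3%; interval 17.6 to 23.3%), by 12.3% of partly overlapped peaks and by 5.66% of peaks without H3K27me3. Scores of 3100 or more were held by 7 nested peaks (0.947%; interval 0.460 to 1.94%), by 6.46% of partly overlapped peaks and by 15.6% of peaks without H3K27me3.

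Since score rose with width, the classes were also set side by side within bands of H3K4me3 width. The nested peaks had the lowest median in each of the 5 bands. Among peaks of 1000 to 1499 bp, the band with the most members, the median score was 156.4 for 334 nested peaks, 423.67 for 369 partly overlapped peaks and 1002.4 for 3047 peaks without H3K27me3. From 1500 to 1999 bp it was 533.99 for 233 nested peaks, 976.38 for partly overlapped peaks and 1890.79 for peaks without H3K27me3. The quartile ranges of nested peaks and of peaks without H3K27me3 did not meet in either of these bands. In the narrowest band, under 1000 bp, the medians were 72.45 for 69 nested peaks, 153.76 for partly overlapped peaks and 265.3 for peaks without H3K27me3. In the widest, from 3000 bp, the 19 nested peaks had a median of 1902.25, while both other classes had 3100, the value at which the scale ties.

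**Figure D1:**
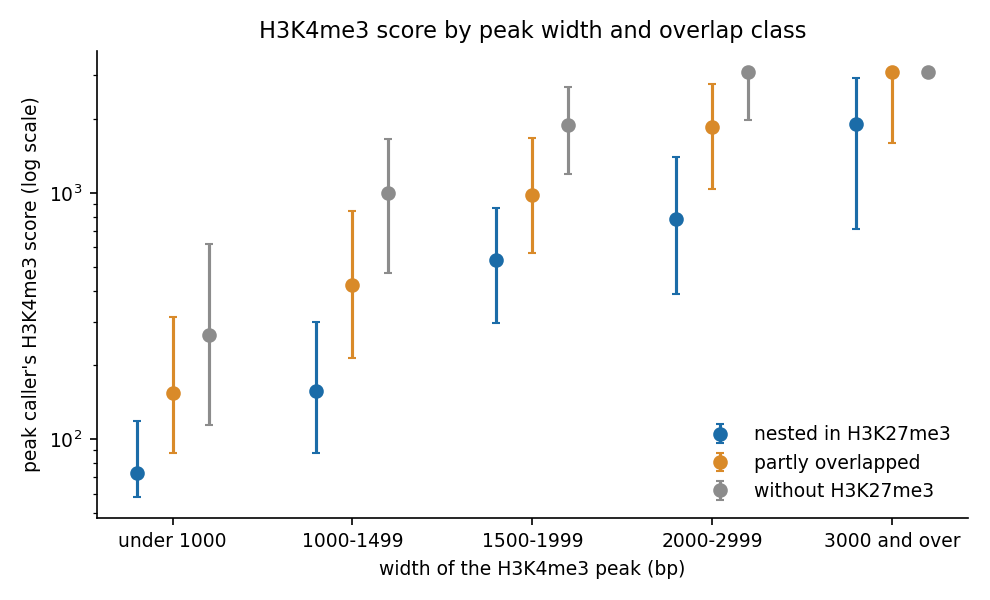
Median H3K4me3 peak score (points, log axis) with quartiles (bars) in 5 bands of H3K4me3 peak width, for peaks nested in H3K27me3, partly overlapped by it and without it. The nested peaks had the lowest median in every band, from 72.45 under 1000 bp to 1902.25 from 3000 bp, and the peaks without H3K27me3 reached 3100 from 2000 bp upwards.

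The share of H3K4me3 peaks that were nested fell steadily as their score rose. It was 18.0% for scores from 50 to 100 (150 of 835 peaks; interval 15.5 to 20.7%) and 15.8% for scores from 100 to 300 (250 of 1582). From 300 to 1000 it was 8.30% (240 of 2891), from 1000 to 2000 it was 2.67% (72 of 2701), and from 2000 to 3100 it was 1.14% (20 of 1754). At 3100 and above it was 0.455% (7 of 1539; interval 0.220 to 0.936%). Of the 2055 H3K4me3 peaks that overlapped H3K27me3 at all, 36.0% were nested. Among these the share was level over the first classes, at 48.1% for scores from 50 to 100 (interval 42.6 to 53.6%) and 48.3% for scores from 100 to 300 (interval 44.0 to 52.6%). It was 35.3% from 300 to 1000 and lower in each class above, down to 7.61% for scores of 3100 and above (interval 3.73 to 14.9%). By width, the share of all H3K4me3 peaks that were nested was 3.01% under 1000 bp, 8.91% from 1000 to 1499 bp and 5.26% from 3000 bp.

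The hosts had a median width of 2762 bp (quartiles 2115.75 and 3747.75 bp) and ranged from 847 to 21807 bp. H3K27me3 peaks that overlapped H3K4me3 without enclosing a whole peak had a median of 1564 bp (1336 peaks), and H3K27me3 peaks without H3K4me3 had 1600 bp (3475 peaks). A host must be at least as wide as its member, so greater width follows in part from the rule. Hosts wider than 5 kb numbered 98 (13.5%; interval 11.2 to 16.2%), against 2.02% of the other overlapping H3K27me3 peaks and 9.53% of those without H3K4me3. The 724 hosts covered 2.47 Mb, which was 18.8% of the length of all H3K27me3 peaks on numbered chromosomes. The members filled 1.16 Mb of that, or 46.9%, and left 1.31 Mb of host outside the nested peaks. In 28 hosts, part of this was overlapped by an H3K4me3 peak that was not nested.

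The median host score was 755.02 (quartiles 352.93 and 1736.04). It was 220.97 for H3K27me3 peaks that overlapped H3K4me3 without enclosing a peak and 186.31 for those without H3K4me3. The gap was smaller among H3K27me3 peaks of like width. From 2000 to 2999 bp the median scores were 607.24 for 278 hosts, 522.5 for other overlapping peaks and 424.68 for peaks without H3K4me3, with quartile ranges that largely coincided. From 3000 to 4999 bp they were 1210.73 for 203 hosts, 1281.72 for other overlapping peaks and 1015.48 for peaks without H3K4me3. From 1500 to 1999 bp they were 313.97 for 106 hosts, 246.13 for other overlapping peaks and 209.36 for peaks without H3K4me3. The ratio of medians was largest under 1500 bp, where 39 hosts had a median of 210.04, other overlapping peaks 120.07 and peaks without H3K4me3 89.1. The low H3K4me3 scores of nested peaks were thus also found at matched H3K4me3 width. They were not found in each class of overlapping pairs sorted by the ratio of H3K27me3 width to H3K4me3 width. From 1 to 3 times, nested pairs had the higher median H3K4me3 score in each class, and at 3 times and above the lower. The 554 pairs with a narrower H3K27me3 peak, which the rule bars from nesting, had a median H3K4me3 score of 1177.15. The ratio of host scores to those of other H3K27me3 peaks was smaller at matched H3K27me3 width.

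The centres of most members lay near the middle of their hosts. The median member covered 54.9% of its host (quartiles 40.2 and 67.8%), and the host was a median of 1.82 times as wide as the member. At the low-coordinate side the host reached a median of 556 bp beyond the member, and at the high-coordinate side 563 bp. Neither side was favoured: 374 members lay nearer the low-coordinate edge and 364 nearer the high-coordinate edge, with 1 exactly central. The nearer flank had a median of 304 bp and the farther flank of 893 bp. The centre of the member lay a median of 0.0782 of the host width away from the host's centre (quartiles 0.0353 and 0.140), and it fell between 0.333 and 0.667 of the host width for 601 members (81.3%; interval 78.4 to 84.0%).

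A member that fills most of its host has to be central, so position was also measured among the places the host allowed, from 0 where the member touches the low-coordinate edge to 1 where it touches the other. An even spread would put 73.9 members in each of 10 equal classes. The classes from 0.3 to 0.7 held 94, 98, 87 and 81 members, and the outermost held 52 and 53. In all, 360 members lay in the middle 40% of the places allowed (48.7%; interval 45.1 to 52.3%) and 105 in the outer 20% (14.2%; interval 11.9 to 16.9%). The limit between nested and partly overlapped peaks, described below, lies at these outer places, and its part in this pattern was not tested. In hosts under 2000 bp the share in the middle 40% was 37.2% (54 of 145, interval 29.8 to 45.3%), which includes an even spread. It was 50.4% in hosts of 2000 to 3000 bp and 54.6% in hosts of 3000 to 5000 bp. In hosts of 5000 to 10000 bp it was 48.2%, and in hosts of 10 kb or more 50.0%.

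**Figure D2:**
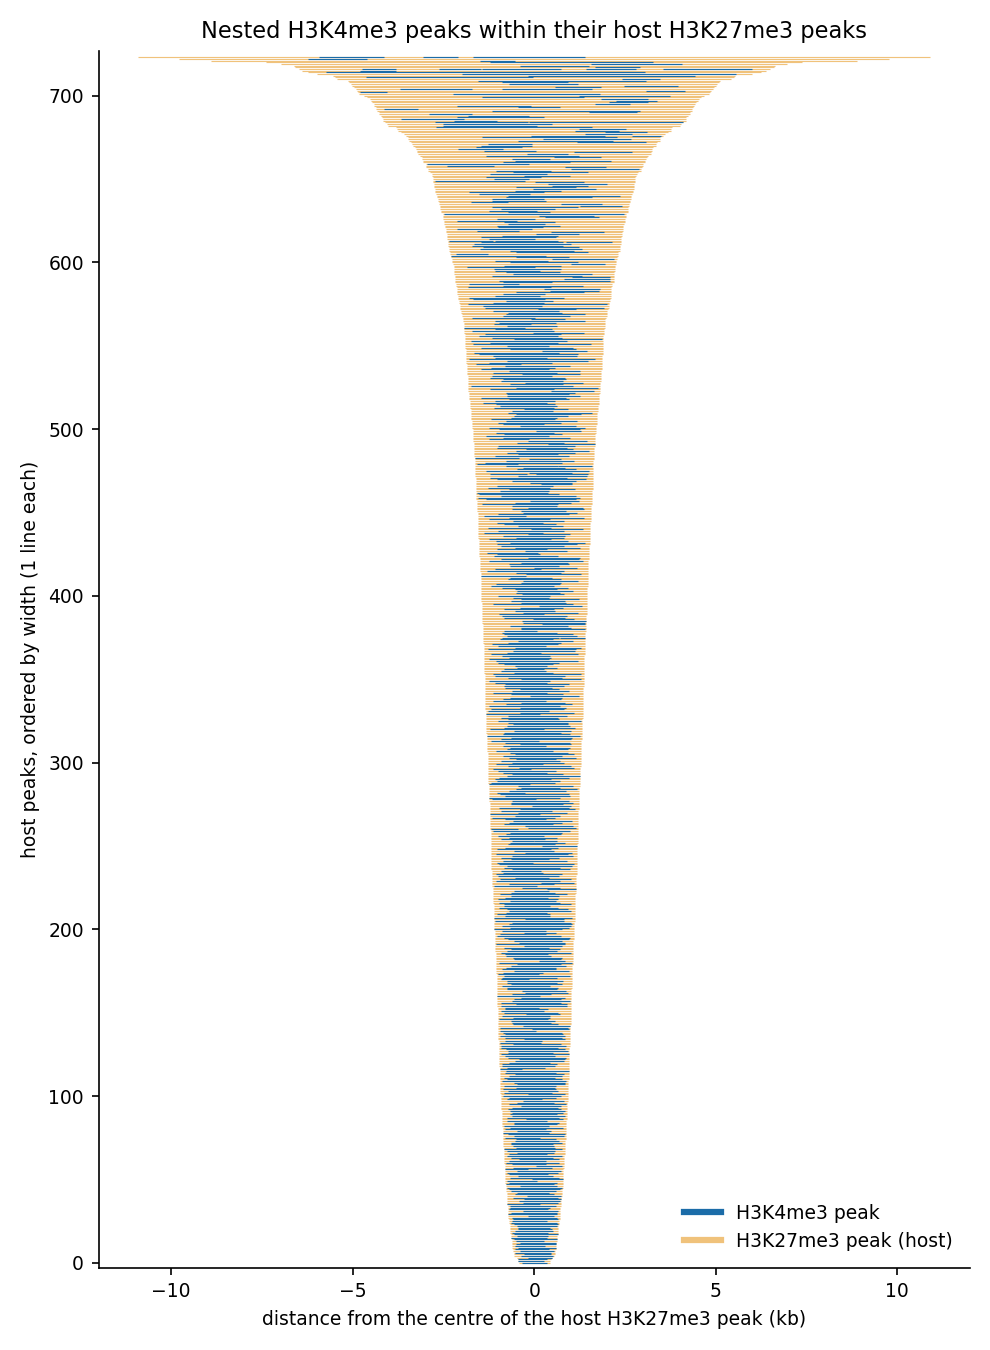
Each line is 1 of the 724 host H3K27me3 peaks (light), centred at 0 and ordered by width, with its nested H3K4me3 peaks (dark); the horizontal axis is the distance from the host's centre in kb. The centre of the member lay a median of 0.0782 of the host width from the host's centre, and some of the widest hosts, which reach 21807 bp, hold members well away from it.

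Members differed with the width of the host, and not in 1 direction. In hosts under 2000 bp the 145 members had a median width of 1190 bp and a median score of 173.93. The 280 members in hosts of 2000 to 3000 bp had a median score of 295.55, and the 207 in hosts of 3000 to 5000 bp had the highest, 414.82, with a median width of 1699 bp. In hosts of 5000 to 10000 bp, 83 members had a median score of 149.86 at a median width of 1473 bp. The 18 hosts of 10 kb or more held 24 members, which had a median width of 1858 bp and a median score of 147.88. Scores under 100 were common at both ends of the range of host width. They were held by 30.3% of members in hosts under 2000 bp (44 of 145, interval 23.4 to 38.3%) and by 16.4% in hosts of 2000 to 3000 bp. The share was 13.0% in hosts of 3000 to 5000 bp (27 of 207, interval 9.12 to 18.3%). It was 28.9% in hosts of 5000 to 10000 bp (24 of 83, interval 20.3 to 39.4%) and 37.5% in hosts of 10 kb or more (9 of 24, interval 21.2 to 57.3%). A single site on chromosome 7, described below, gave 8 of these 24 members and 5 of the 9 scores under 100. Long hosts thus held H3K4me3 peaks with low median scores although their members were not narrow. The host scored 3100 for 44 of the 83 members and for 23 of the 24.

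The 5 widest hosts held members of varied width and low score. The widest ran on chromosome 7 from 15806827 to 15828633 (21.8 kb; all coordinates count from 1 on galGal4) and is described with its neighbour below. The second, on chromosome 21 from 3893247 to 3912809 (19.6 kb), held a member of 1622 bp with a score of 119.01, at 3544 bp from its low-coordinate edge. On chromosome 13 the host from 9121249 to 9139038 (17.8 kb) held a member of 964 bp with a score of 59.61 close to its middle. The lowest score in the H3K4me3 list was 50.01. The host on chromosome 17 from 5948753 to 5963508 (14.8 kb) held a wide member, of 4489 bp, with a score of only 168.27. In the fifth, on chromosome 23 from 4244490 to 4258433 (13.9 kb), the member spanned 2495 bp and scored 58.31. All 5 hosts scored 3100.

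At the other end, the 5 narrowest hosts measured 847, 895, 917, 971 and 1105 bp, on chromosomes 11, 6, 9, 3 and 17. Their members were 639 to 873 bp wide and scored between 51.77 and 261.1, and the hosts scored between 71.02 and 482.81. The narrowest host, from 13511359 to 13512205 on chromosome 11, exceeded its member by 99 bp on one side and 78 bp on the other.

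The widest members were broad H3K4me3 domains inside H3K27me3. The 10 widest ran from 4083 to 8790 bp, and the host of each scored 3100. These hosts were all wider than 5 kb. Among H3K27me3 peaks from 5000 bp, the median score was 3100 for hosts, for other overlapping peaks and for peaks without H3K4me3 alike. The widest lay on chromosome 5 from 5226915 to 5235704, scored 3010.57, and filled 70.4% of a host of 12.5 kb. The second lay on chromosome 2 from 63367874 to 63375397, scored 2488.65, and filled 62.8% of a host of 12.0 kb. The third, on chromosome 15 from 12567092 to 12572062, scored 1902.25. At this place both marks had nearly the same limits: the host exceeded the member by 28 bp at the low-coordinate edge and 46 bp at the other, so that the member filled 98.5% of it. The fourth lay on chromosome 14 from 2397383 to 2402013, scored 2844.26 and filled 45.2% of its host.

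The next 5 among the widest differed mostly in score. A member of 4622 bp on chromosome 7 from 17721140 scored 708.47, and one of 4605 bp on chromosome 2 from 65203066 scored 1308.15. The member of 4489 bp on chromosome 17, in the fourth widest host, scored 168.27. On chromosome 6 a member of 4297 bp from 34788421 scored 565.69. The ninth, on chromosome 4 from 78387709 to 78391958, scored 3100 and ended 1 bp inside its host. The tenth spanned 4083 bp on chromosome 22 from 605810 and scored 1643.72. Members of like width, from 4083 to 4622 bp, thus had scores from 168.27 to 3100.

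High-scoring members were few, and the scores of their hosts ranged widely. Only 7 members reached 3100, of which 6 had exactly that value and 1, on chromosome 3 from 33955021 to 33958504, had 3209.76 in a host that scored 1257.9. The member on chromosome 1 from 24728993 to 24731184 scored 3100 in a host of 3.05 kb that scored 107.71. On chromosome 27 the member from 4733428 to 4735680 scored 3100 in a host of 376.01, and on chromosome 13 the one from 1407418 to 1410489 did so in a host of 415.72. Both marks stood at 3100 at the chromosome 4 site named above and on chromosome 10 from 4746582 to 4750629, in a host of 9.63 kb. A second site on chromosome 10, from 13994466 to 13996527, scored 3100 in a host of 897. The list of 10 was completed by members on chromosome 5 from 27372502 (3080.21), chromosome 4 from 58445338 (3025.34) and chromosome 5 from 5226915 (3010.57), in hosts of 1498, 445.11 and 3100. Thus 3 of the 10 highest-scoring members had hosts at 3100 and 4 had hosts under 500. Of all 724 hosts, 84 scored 3100 or more (11.6%), and the lower quartile of host scores was 352.93. Whether the hosts of these 10 differed from the rest was not tested. Of the 10 widest members, 2 were among the 10 highest-scoring.

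With the H3K27me3 peaks as deposited, 713 of 724 hosts (98.5%) held a single nested H3K4me3 peak, while 9 held 2, 1 held 3 and 1 held 5. This depended on how the H3K27me3 peaks were split: with those within 1 kb merged, 14.7% of hosts held 2 or more, and with those within 5 kb merged, 17.1%. The 11 hosts with more than 1, or 1.52% (interval 0.850 to 2.70%), accounted for 26 members. They were wide, with a median of 4765 bp, against 2757 bp for hosts with a single nested peak, and 6 of the 11 scored 3100. A wider host has more room for a further peak, and the part of this in the counts was not tested. The members that shared a host had a median score of 103.04, against 268.77 for members alone in a host, at median widths of 1435.5 and 1448 bp.

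Peaks that shared a host lay close to each other, which follows in part from the rule, since all must fit in 1 host. The 15 gaps between neighbouring nested peaks ran from 2 to 1191 bp with a median of 250 bp, and 7 were no more than 100 bp long. The shortest, of 2 bp, parted members of 607 and 643 bp on chromosome 3, in the host from 82483490 to 82485877. Where 2 members shared a host, their scores could be far apart. On chromosome 4, in the host from 78383764 to 78391959, a gap of 18 bp parted a member that scored 83.66 from the one that scored 3100. On chromosome 18, in the host from 6160393 to 6165153, the scores were 1692.57 and 77.01 across a gap of 82 bp. On chromosome 1 they were nearly equal, 113.9 and 148.81, in the host from 152741699 to 152746463.

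The densest site was on chromosome 7, where 2 hosts that held 5 and 3 members lay only 122 bp apart. The first host ran from 15793742 to 15806704 (13.0 kb) and both scored 3100. Its members scored 69.04, 54.42, 413.46, 61.91 and 741.86 in order of position and together covered 62.5% of it. The second host was the widest of all, and its members, at 15811799, 15814668 and 15816034, scored 125.12, 58.33 and 85.83. They lay in its low-coordinate and middle parts and covered 26.8% of it, with 9505 bp of H3K27me3 beyond the last. Of the 8 members at this site, 5 scored under 100. The first host was also entered at its low-coordinate edge by an H3K4me3 peak of 14207 bp that was not nested. Over all hosts, 28 (3.87%; interval 2.69 to 5.53%) were overlapped by a further H3K4me3 peak that reached beyond the host.

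**Figure D3:**
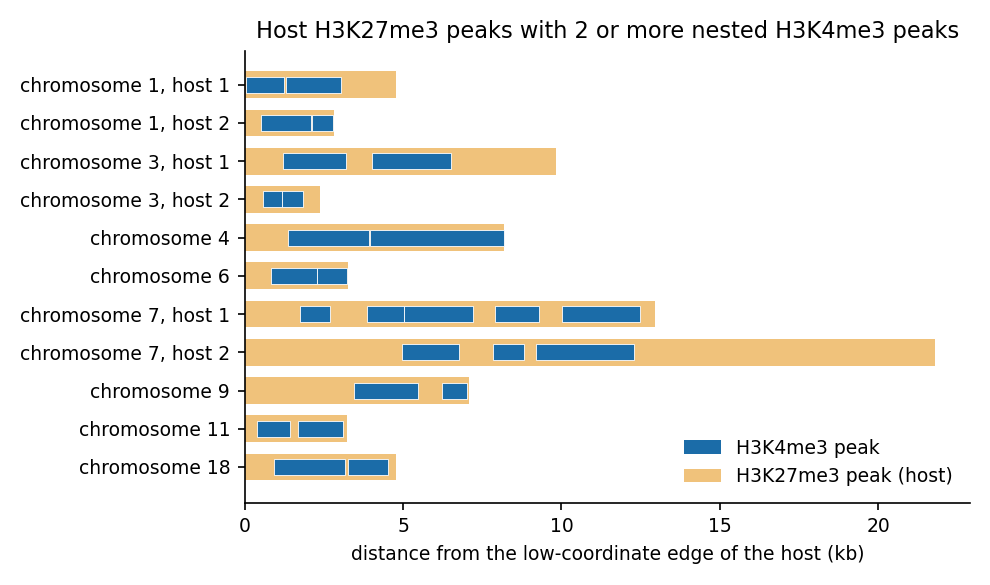
The 11 host H3K27me3 peaks (light bars) that held 2 or more nested H3K4me3 peaks (dark bars), drawn to scale in kb from the low-coordinate edge of each host. The first host on chromosome 7 holds 5 nested peaks and the second, of 21.8 kb, holds 3; 7 of the 15 gaps between nested peaks are 100 bp or less.

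The limit between nested and partly overlapped peaks ran beside a place where edges of both marks piled up. Just inside it, 5 members shared an edge with their host, on chromosomes 1, 2 (at 2 sites), 3 and 7, and they scored 350.14, 934.94, 608.7, 222.11 and 167.1. Just outside it, 7 H3K4me3 peaks stuck out by 1 bp, on chromosomes 3, 4, 5 (at 2 sites), 8 (at 2 sites) and 10, and they scored between 58.2 and 387.27. Each overlapping pair of peaks gave 2 H3K4me3 edges, or 4224 in all. An H3K4me3 peak that overlapped more than 1 H3K27me3 peak was counted once for each pair. Of these, 697 (16.5%) lay 1 to 50 bp outside the H3K27me3 peak and 168 (3.98%) lay 1 to 50 bp inside it. The densest 10 bp, from 20 to 11 bp outside, held 315 edges, while the 10 bp at the same distance inside held 37. Low-coordinate and high-coordinate edges did this alike, with 145 and 170 edges in that interval.

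**Figure D4:**
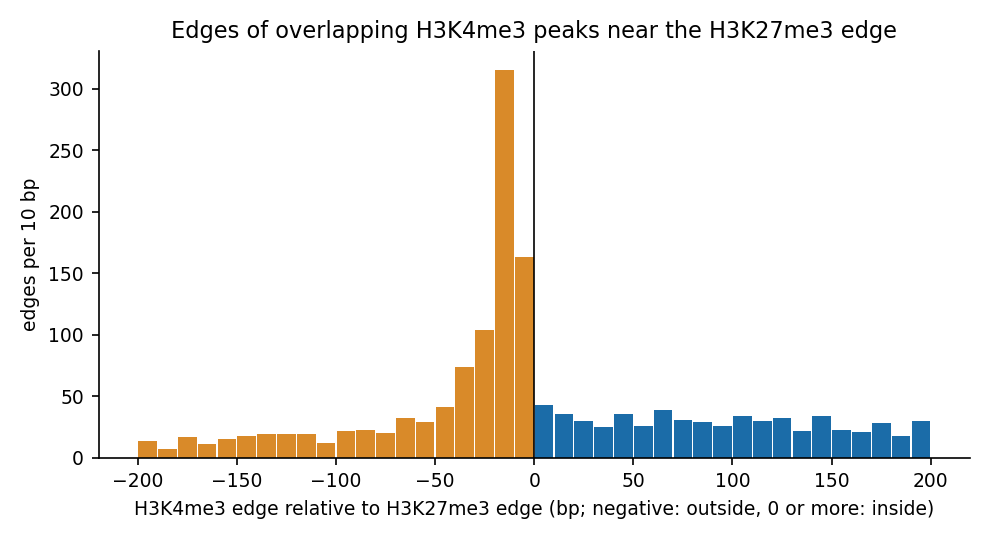
Number of H3K4me3 edges per 10 bp, over all overlapping pairs on numbered chromosomes, by distance from the H3K27me3 edge on the same side (negative and light: outside the H3K27me3 peak; 0 or more and dark: inside it). The count climbs to 315 between 20 and 11 bp outside and is 43 in the first 10 bp inside, so the limit for nesting lies at the foot of a sharp pile of edges.

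Many partly overlapped peaks therefore missed the rule by little. The median partly overlapped peak stuck out by 104 bp, 552 of 1316 stuck out by no more than 50 bp (41.9%) and 656 by no more than 100 bp (49.8%). Nested peaks had a median score of 262.68 at a median width of 1447 bp. The 656 that stuck out by at most 100 bp were narrower, with a median of 1021.5 bp, and had a median score of 312.62. The 660 that stuck out further were wider, at 1761.5 bp, and scored 1031.93. At a given H3K4me3 width, nested peaks had a lower median score than both groups up to 2999 bp. This did not hold when pairs were sorted by the ratio of H3K27me3 width to H3K4me3 width. From 1.5 to 2 times, for example, the median H3K4me3 score was 333.38 for nested pairs and 201.27 for the others (all classes are given under Other observations). From 1000 to 1499 bp the medians were 156.4 for nested peaks, 404.96 for the near misses and 447.49 for peaks that stuck out further. From 3000 bp the nested peaks and the near misses had like medians, 1902.25 and 1943.05, over 19 and 14 peaks.

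Near misses also differed from the members in their surroundings. Another H3K4me3 peak lay within 5 kb of 139 nested peaks (18.8%; interval 16.2 to 21.8%), of 44.4% of partly overlapped peaks and of 38.3% of peaks without H3K27me3. The median distance to it was 26.1 kb for nested peaks, 10.2 kb for partly overlapped peaks and 10.3 kb for those without H3K27me3. Among partly overlapped peaks, 61.6% of those that stuck out by at most 100 bp had a neighbour within 5 kb. The median distance to the nearest was 809 bp. Of those that stuck out further, 27.3% had a neighbour within 5 kb, and the median distance was 23626 bp. The isolation of nested peaks was thus marked against near misses. Against the rest of the partly overlapped peaks the share within 5 kb was lower, but the median distances were close.

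Hosts had few close neighbours as well, as did overlapping H3K27me3 peaks that were not paired with a near miss. Another H3K27me3 peak lay within 5 kb of 187 hosts (25.8%; interval 22.8 to 29.1%), of 45.4% of other H3K27me3 peaks that overlapped H3K4me3, and of 75.3% of H3K27me3 peaks without H3K4me3. The median distance was 50.3 kb for hosts, 17.9 kb for other overlapping peaks and 0.739 kb for H3K27me3 peaks without H3K4me3. Of the other overlapping H3K27me3 peaks, the 643 paired with a near miss had a neighbour within 5 kb in 61.7% of cases and the remaining 693 in 30.3%, which is nearer to the share of the hosts. When H3K27me3 peaks within 5 kb were joined into domains, 537 hosts stood alone (74.2%) and 42 were part of a domain of 20 kb or more (5.80%; interval 4.32 to 7.75%). Of H3K27me3 peaks without H3K4me3, 24.7% stood alone and 24.5% were part of such a domain. Most nested H3K4me3 peaks therefore sat in an H3K27me3 peak with no other of its kind within 5 kb, and the chromosome 7 site was an exception. The rule asks for 1 unbroken H3K27me3 peak around the member, which disfavours hosts among H3K27me3 peaks split into close pieces. With H3K27me3 peaks within 1 kb merged, 1117 H3K4me3 peaks were nested instead of 739. The part of this in the isolation of hosts was not tested.

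Nested peaks were found on 26 of the 28 numbered chromosomes of the lists. Chromosomes 1 to 5, the macrochromosomes, held 362 of them (49.0% of members, against 50.4% of all H3K4me3 peaks). The intermediate chromosomes 6 to 10 held 156 (21.1%, against 17.3%), and the small, gene-dense microchromosomes from 11 upwards held 221 (29.9%, against 32.3%). The share of H3K4me3 peaks nested was 6.35% on macrochromosomes (interval 5.75 to 7.02%), 7.97% on intermediate chromosomes (interval 6.85 to 9.25%) and 6.06% on microchromosomes (interval 5.33 to 6.89%). Of H3K27me3 peaks, 10.9% were hosts on microchromosomes (interval 9.61 to 12.3%), 14.7% on macrochromosomes (interval 13.3 to 16.1%) and 13.5% on intermediate chromosomes (interval 11.6 to 15.7%). Hosts were wider on microchromosomes, with a median of 3263 bp, against 2572 bp on macrochromosomes and 2581.5 bp on intermediate chromosomes. Whether H3K27me3 peaks in general were wider there was not examined. The members had median widths of 1484 bp on microchromosomes, 1459.5 bp on macrochromosomes and 1374 bp on intermediate chromosomes.

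Single chromosomes ranged from no nested peak to 10.2% of H3K4me3 peaks. Chromosome 7 had the highest share, with 43 of 420 (interval 7.69 to 13.5%); without the 8 members of the dense site it had 8.50% (interval 6.17 to 11.6%). Chromosome 6 followed with 9.56% (39 of 408; interval 7.07 to 12.8%). Chromosome 1 had 5.04% (85 of 1685; interval 4.10 to 6.20%) and chromosome 28 had 1.70% (3 of 176; interval 0.581 to 4.89%). No member was found among 92 peaks on chromosome 25, where the interval allows a share of up to 4.01%, or among 16 on chromosome 16, where it allows up to 19.4%. Few H3K4me3 peaks on these chromosomes overlapped H3K27me3 at all: 3 on chromosome 25, 1 on chromosome 16 and 10 on chromosome 28. The intervals of chromosomes 1, 6, 7, 25 and 28 did not include the overall 6.54%, but were not corrected for the 28 chromosomes compared, and that of chromosome 7 did include it without the dense site. Among overlapping H3K4me3 peaks only, the intervals of chromosomes 1, 6, 25 and 28 included the overall 36.0%. On chromosome 7 this share was 45.7% (interval 36.0 to 55.8%). On chromosome 17 it was 55.9% of 34 overlapping peaks (interval 39.5 to 71.1%), which excludes the overall share, again without correction for the 28 chromosomes.

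**Figure D5:**
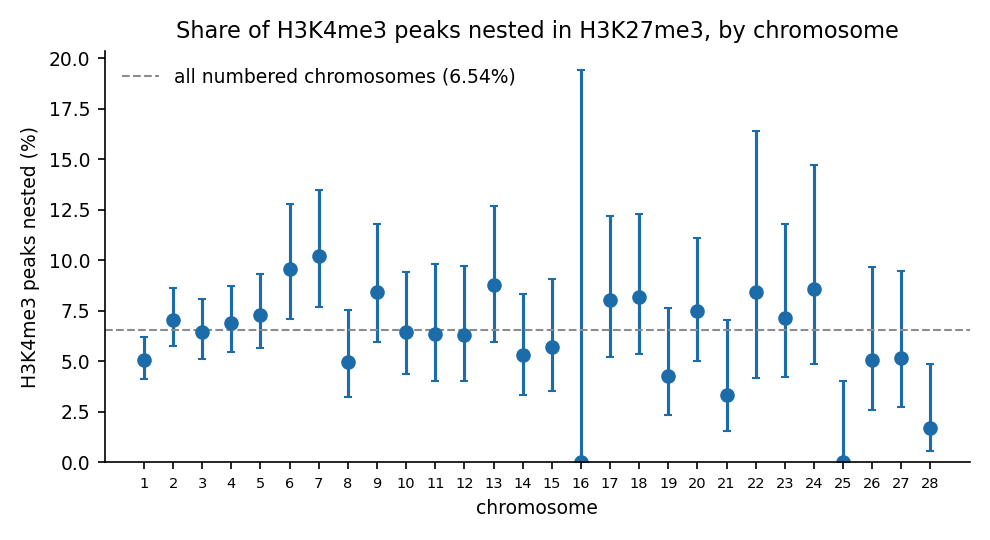
Percentage of H3K4me3 peaks nested in H3K27me3 peaks on each numbered chromosome (points) with 95% Wilson intervals (bars); the dashed line marks 6.54%, the share over all of them. Chromosome 7 has the highest share, 10.2%, and chromosomes 16 and 25 have none.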

How the data were processed

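The peak lists, 1 for each mark, were used as the authors deposited them. MACS in Galaxy made the calls, per the file headers. The submitters' processing notes name BWA, MACS2 and the assembly galGal4. Read filters, caller settings and any use of the Input were not given in the sources at hand. Besides the start and end of each peak the authors gave a score on a scale they did not name.

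Peaks on numbered chromosomes were classed by position with Python 3.11.15 (pandas 2.3.3, scipy 1.17.1). The classing was tested on simulated data, and bedtools 2.31.1 also gave 739 nested peaks. Shares carry 95% Wilson intervals, and 8 alternatives varied the sequences, the host peaks, the limit for nesting and the scores. Regions were named by a rule: the 10 widest and 10 highest-scoring members, the 5 widest and 5 narrowest hosts, hosts with 4 or more members, and the peaks nearest the limit. The other shared hosts were named after their values were seen. The members were chosen with earlier results of these data known, and the bands of width and score and the count of edges were chosen after the data were seen. No gene annotation or sequence of galGal4 was used, so no peak was assigned to a gene.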

Additional observations from a re-analysis of the deposited data

Results flagged for a closer look

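Nested H3K4me3 peaks also occurred on sequences outside the numbered chromosomes, which the rule left out. Chromosome Z held 60 among 608 H3K4me3 peaks (9.87%; 95% Wilson interval 7.74 to 12.5%), in 60 hosts with a median width of 2453 bp, and their median H3K4me3 score was 343.17. Unplaced and other sequences held 11 among 497 (2.21%; interval 1.24 to 3.92%), with a median H3K4me3 score of 190.57. On chromosome W none of 7 H3K4me3 peaks was nested.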

How the results depend on the processing

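Over 8 alternatives, 41 of 80 recomputed values stayed within the interval of the reported value (or, for counts, within 1.5 times) and 39 moved; none reversed. The reported values were 739 nested peaks in 724 hosts, a host width of 2762 bp, a host score of 755.02, a member width of 1447 bp, a member score of 262.68, an offset of the centre of 0.0782, 1.52% of hosts with 2 or more members and a score ratio of 0.454 for nested over partly overlapped peaks. Merging H3K27me3 peaks within 1 kb, and within 5 kb, gave 1117 and 1200 nested peaks, host widths of 3173 and 3351 bp, offsets of 0.107 and 0.121, member widths of 1329 and 1322.5 bp, 14.7 and 17.1% of hosts with 2 or more, and ratios of 0.337 and 0.328. Sticking out by up to 100 bp gave 1395 nested peaks in 1367 hosts of 2220 bp and score 561.91, an offset of 0.105, a member width of 1275 bp and a ratio of 0.279. Both ends at least 100 bp inside gave hosts of 2965.5 bp and score 922.15. Keeping peaks from the median score of each list upwards left 69 nested peaks in 69 hosts of 3291 bp and score 917.13. It gave an offset of 0.0570, a member score of 1644.92, a member width of 2111 bp and 0% of hosts with 2 or more. The ratio was 0.853 with an interval of 0.765 to 1.02, which includes 1, so the lower score of nested peaks was not resolved there. By construction this alternative removes low scores. Leaving out scores of 3100 and above gave hosts of 2652 bp and score 632.34, 0.787% with 2 or more and a ratio of 0.546. Leaving out scores below 100 gave an offset of 0.0725, a member score of 376.69, a member width of 1564 bp, 0.353% with 2 or more and a ratio of 0.536. Apart from the removal by score, the cause of these moves was not tested. With all sequences included none of the 10 results moved. No paired analysis was possible because each mark has 1 library. The read depth is unknown, so the absence of a peak does not show the absence of a mark.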

Other observations

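Overlapping pairs of peaks were also sorted by how much wider the H3K27me3 peak was, which shows how often H3K4me3 was enclosed where there was room for it. With an H3K27me3 peak 1 to 1.25 times as wide as the H3K4me3 peak, 21.0% of 371 pairs were nested (95% Wilson interval 17.2 to 25.5%). From 1.5 to 2 times the share was 56.2% of 420 (interval 51.4 to 60.9%), and at 3 times and above it was 61.4% of 207 (interval 54.6 to 67.7%). Even with ample room, then, the H3K4me3 peak reached beyond the H3K27me3 peak in 80 of the 207 pairs. Of all 1316 partly overlapped peaks, 656 stuck out by no more than 100 bp, and the distance was not determined for this class of pairs alone. In that class the median H3K27me3 score was 2724.09 for nested pairs and 1560.74 for the others, and the median H3K4me3 score was 121.92 for nested pairs and 142.21 for the others. In the lower classes from 1 time upwards, the median H3K4me3 score was instead higher for nested pairs. It was 715.55 against 704.61 from 1 to 1.25 times and 400.12 against 383.7 from 1.25 to 1.5 times. From 1.5 to 2 times it was 333.38 against 201.27, and from 2 to 3 times 195.73 against 182.63. The 554 pairs with a narrower H3K27me3 peak, none of them nested, had a median of 1177.15.

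Across the 739 members, H3K4me3 score and host score were nearly unrelated, with a Spearman correlation of -0.08, while member width and host width had one of 0.40. Over the 1373 overlapping pairs that were not nested the values were -0.12 and 0.34. Members that lay farther from the centre of their host had lower H3K4me3 scores (a correlation of -0.25). Members that filled more of their host had higher scores (0.42), and a member that fills most of its host has to be central. The part of this in the correlation with position was not tested. These correlations are across peaks of the same libraries, which are not independent replicates, and score rises with width in both lists.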
